A study of Mus musculus with 9 samples.

Results

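The genes described here encode the proteins that stand between Toll-like receptors and the cell's first kinases: the coreceptors Cd14 and Ly96, the adaptors Tirap, Myd88, Ticam1 and Ticam2, and the kinases Irak1, Irak2, Irak3 and Irak4. They were chosen by name, and probe sets were assigned to them by the platform's gene symbol. Of these 10 genes, 8 were measured by a probe set of their own, out of 18193 genes measured so in all. All 8 passed the filter on dim genes that left 13078 genes for the test, and Ticam2 and Irak4 were not analysed here.

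Toll-like receptors are sensors of microbial molecules on macrophages, monocytes, dendritic cells and granulocytes. Cd14 hands lipopolysaccharide to a complex of Ly96 (MD-2) and Tlr4, and the engaged receptors recruit adaptors through a shared domain. Myd88, which receptors for interleukin-1 also use, assembles IRAK kinases into a signalling platform that leads to NF-kappaB, whereas Ticam1 (TRIF) leads to interferon regulatory factors.

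The RNA came from CD11b+ splenocytes of C57BL/6 mice, isolated with magnetic beads from the adherent fraction of spleen cells and hybridised to Affymetrix MOE430 arrays. The labels name no other allele, agent, age or sex. The HighThreat group, called threat animals here, holds 6 mice exposed repeatedly to social threat, with 1 mouse per array. The LowThreat group, called control pools, holds 6 mice kept under non-threatening conditions, pooled by 2 on 3 arrays numbered 1-2, 3-4 and 5-6, so that the spread between single control animals is not seen. The design asks whether gene expression in these cells differs between the 2 conditions. Values are log2 expression values, differences are threat minus control on that scale, and ± gives the SD between arrays of a group.

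The 2 groups differed at many genes. Of 13078 genes tested with limma, 45.8% were called at a Benjamini-Hochberg adjusted p under 0.05, 23.8% higher and 22.0% lower in threat animals, and array medians ran from 3.19 to 3.22. The groups did not overlap in 41.8% of the genes. RNA integrity was read from the beta-actin control probe sets, whose 3' value exceeded the 5' value by 0.472 ± 0.063 in control pools and by 0.357 ± 0.034 in threat animals (exact permutation p = 0.0238 over 84 divisions of the arrays, two-sided), while for Gapdh it was -0.035 ± 0.052 and -0.071 ± 0.088 (exact permutation p = 0.512). The part of this in the results below was not tested.

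Of the 8 measured genes, 4 rose in threat animals, 2 fell and 2 did not pass the test. The shares higher and lower were 50% and 25%, against 23.8% and 22.0% over all genes tested, so the share that fell was near that of all genes. The rises were those of Irak3, Tirap, Myd88 and Cd14, between 1.50-fold and 2.44-fold, and the falls were those of Irak1 and Irak2, 1.12-fold and 1.17-fold. The groups did not overlap for the 6 called genes, as was the case in 41.8% of all genes tested. The median difference of the 8 genes was 0.33, against 0.029 over all genes tested. In these bulk samples a change in the share of a cell type and a change of RNA per cell cannot be told apart.

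**Figure D1:**
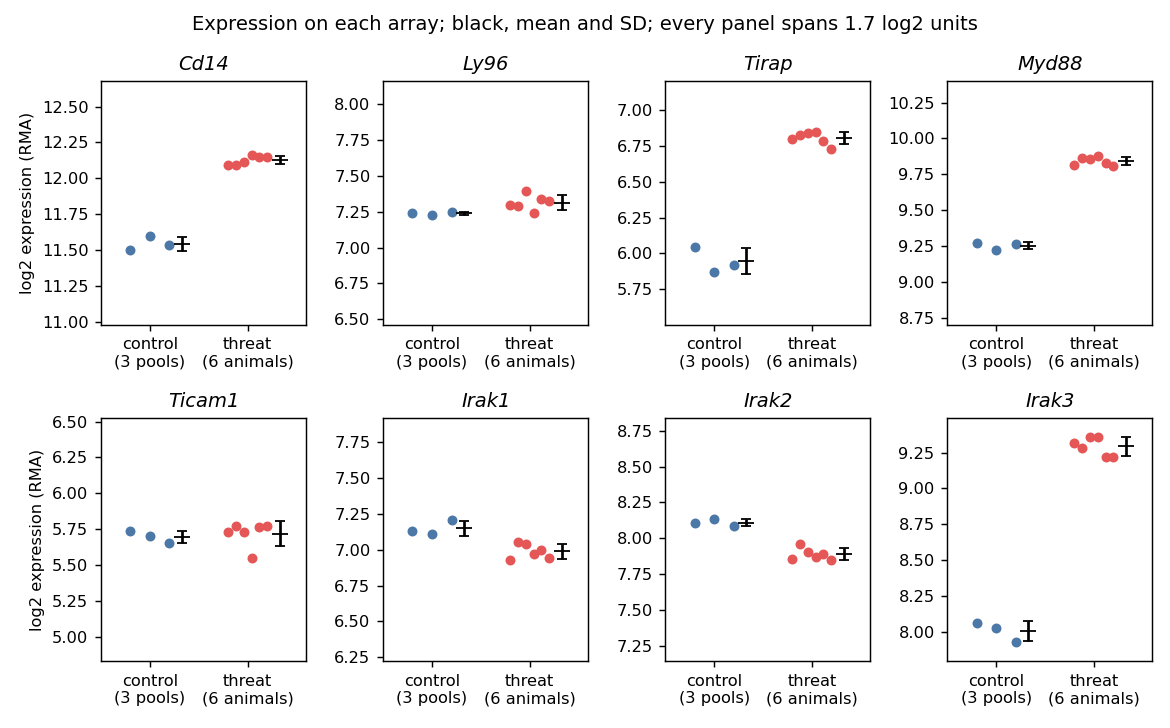
Log2 expression of the 8 measured genes on each array, with the 3 control pools in blue and the 6 threat animals in red, and the mean and SD of each group in black. Every panel spans the same number of log2 units. Threat animals lie above all control pools for Cd14, Tirap, Myd88 and Irak3 and below them for Irak1 and Irak2.

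The coreceptors behaved differently from each other. Cd14, a membrane protein without a signalling domain of its own, had values of 11.50, 11.60 and 11.53 in control pools 1-2, 3-4 and 5-6. In threat animals its values ran from 12.10 to 12.16 with a median of 12.13, so that every threat animal lay above every pool. Cd14 rose by 0.58 (SE 0.044, limma adjusted p = 3.6e-07), a 1.50-fold difference, from 11.54 ± 0.050 (n = 3 pools) to 12.13 ± 0.030 (n = 6 animals). Its lowest values were those of threat animals 1 and 2, and its highest that of threat animal 4.

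Ly96 is the small secreted partner that completes the lipopolysaccharide binding site of Tlr4. It read 7.24, 7.23 and 7.25 in the 3 control pools and between 7.24 and 7.39 in threat animals, with a median of 7.31. The groups overlapped, since threat animal 4 lay within the range of the control pools. The difference of 0.072 (SE 0.046, limma adjusted p = 0.232) did not pass the test, and its 95% confidence interval ran from -0.029 to 0.17, which does not reach the difference of Cd14.

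The adaptors that serve the Myd88 branch rose. Tirap (Mal) bridges Tlr2 and Tlr4 to Myd88 at the plasma membrane. Its values were 6.05, 5.87 and 5.92 in the control pools and 6.73 to 6.85 in threat animals, with a median of 6.81. Every threat animal lay above the highest pool, and threat animal 6 was the lowest of the animals. Tirap rose by 0.86 (SE 0.051, limma adjusted p = 4.3e-08), a 1.81-fold difference. A second probe set of Tirap gave a difference of 0.89 (SE 0.083, adjusted p = 8.6e-06 in a limma fit over all probe sets, of which 39.8% were called).

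Myd88 is the adaptor of nearly all Toll-like receptors and of the interleukin-1 receptor family. The control pools read 9.27, 9.22 and 9.27, and the threat animals read 9.81 to 9.88 with a median of 9.84. The groups were far apart compared with the spread inside them, 9.25 ± 0.026 (n = 3 pools) against 9.84 ± 0.028 (n = 6 animals). Myd88 rose by 0.59 (SE 0.042, limma adjusted p = 2.2e-07), a 1.50-fold difference.

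Ticam1, the adaptor of Tlr3 and of internalised Tlr4 on the Myd88-independent branch, did not pass the test. Its values were 5.74, 5.70 and 5.65 in the control pools and 5.55 to 5.77 in threat animals, with a median of 5.74. The groups overlapped, and threat animal 4 lay below all other arrays. The difference was 0.023 (SE 0.057, limma adjusted p = 0.773), with a 95% confidence interval from -0.10 to 0.15. That interval lies below the intervals of Tirap, 0.75 to 0.97, and of Myd88, 0.50 to 0.68; the differences between these genes were not tested.

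Among the IRAK kinases the family members moved in opposite directions. Irak3 (IRAK-M), which has no catalytic activity and is known as an inhibitor of the signalling platform in myeloid cells, had the largest difference of the 8 genes. The control pools read 8.06, 8.03 and 7.93, and the threat animals read 9.22 to 9.36 with a median of 9.30. Threat animals 3 and 4 shared the highest value and threat animals 5 and 6 the lowest, and all 6 lay at least 1.16 above the highest pool. Irak3 rose by 1.29 (SE 0.053, limma adjusted p = 2.1e-09), a 2.44-fold difference, and ranked 284 by size of difference among the 13078 genes tested. A second probe set of Irak3 rose by 1.17 (SE 0.084, adjusted p = 1.2e-06 in the fit over all probe sets).

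Irak2, a kinase-like partner of the platform that sustains its signal, fell. Control pools read 8.11, 8.14 and 8.09, and threat animals 7.85 to 7.96 with a median of 7.88. All threat animals lay below all pools, with a gap of 0.12 between the nearest arrays. Irak2 fell by 0.22 (SE 0.045, limma adjusted p = 0.0013).

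Irak1, an active kinase that Irak4 phosphorylates, fell by 0.16 (SE 0.049, limma adjusted p = 0.0166). Its values were 7.13, 7.11 and 7.21 in the control pools and 6.93 to 7.06 in threat animals, with a median of 6.99. The groups did not overlap, but the nearest arrays were only 0.058 apart, and the call was lost without control pool 5-6 (difference -0.13, adjusted p = 0.0715). The other 3 probe sets of Irak1 differed by -0.15, -0.17 and -0.29, and each was called in the fit over all probe sets (adjusted p = 0.0148, 0.0096 and 0.00074).

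**Figure D2:**
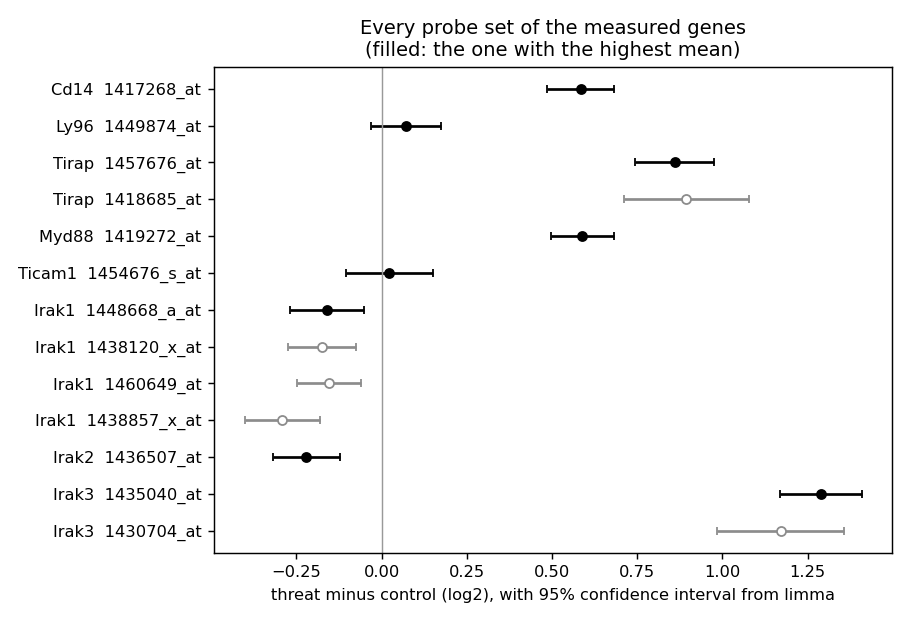
Threat minus control difference on the log2 scale of all 13 probe sets that name the 8 genes, with the 95% confidence interval from a limma fit over all probe sets; filled points mark the probe set with the highest mean of its gene. Probe sets of the same gene lie on the same side of 0, with Irak3 at 1.29 and 1.17, Tirap at 0.86 and 0.89 and the 4 probe sets of Irak1 between -0.29 and -0.15.

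The promoters of Irak3, Tirap and Myd88, 3 of the 4 rising genes, are shown, and no promoter of Cd14 is printed here. The sequences are the 120 bases before each RefSeq start in GRCm38.p6, on the gene's strand and 5′ to 3′, and capitals mark the motifs found. Irak3 has 2 starts in the table; Tirap has 2 whose windows overlap, of which the downstream start is shown.

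Irak3, start inside the gene, chr10:120201598-120201717, minus strand: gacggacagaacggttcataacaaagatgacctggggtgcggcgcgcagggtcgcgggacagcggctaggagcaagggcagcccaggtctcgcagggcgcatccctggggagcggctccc

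Irak3, outermost start, chr10:120202131-120202250, minus strand: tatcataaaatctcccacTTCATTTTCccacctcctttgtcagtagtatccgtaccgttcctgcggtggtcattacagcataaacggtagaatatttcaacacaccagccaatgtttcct

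Tirap, chr9:35199906-35200025, minus strand: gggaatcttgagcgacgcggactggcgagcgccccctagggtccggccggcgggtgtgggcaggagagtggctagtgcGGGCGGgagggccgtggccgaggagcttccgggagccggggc

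Myd88, chr9:119340019-119340138, minus strand: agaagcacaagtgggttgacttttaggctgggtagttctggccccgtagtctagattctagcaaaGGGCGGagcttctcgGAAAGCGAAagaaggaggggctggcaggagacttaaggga

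Motifs were searched on both strands over the 250 bases before each start. The core of the interferon-stimulated response element, GAAANNGAA, was found 40 bases before the start of Myd88 on the gene's strand and 102 bases before the outermost start of Irak3 on the other strand, and 7.13% of the 32851 windows of the table hold it. The GC box, GGGCGG, was found in a window of Irak1, Irak3, Myd88, Ticam1 and Tirap, with 32.7% of all windows holding it. The PU.1 core GAGGAA, held by 23.3% of windows, was found before Ticam1. The NF-kappaB consensus, the AP-1 motif TGANTCA and the cAMP response element TGACGTCA, held by 3.9%, 6.75% and 1.55% of windows, had no match in these letters before Irak1, Irak2, Irak3, Myd88, Ticam1 or Tirap. No matches overlapped each other.

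Among the receptors that feed these adaptors, 10 Toll-like receptor genes were tested, of which 4 were higher and none lower, and the median difference was 0.097. These are 40% and 0%, against 23.8% and 22.0% over all genes tested. Tlr1, which pairs with Tlr2, rose by 1.07 (SE 0.10), Tlr2 by 0.26 (SE 0.047) and Tlr4 by 0.24 (SE 0.061), with limma adjusted p = 2.2e-06, 5.9e-04 and 0.0061. The call of Tlr4 was lost when its probe sets were averaged (difference 0.10, adjusted p = 0.0916). The remaining called gene, Tlr12, differed by 0.15 (SE 0.059, limma adjusted p = 0.0490), and its groups overlapped. Of 4 interleukin-1 family receptor genes, which share Myd88, only Il18rap rose, by 0.52 (SE 0.11, limma adjusted p = 0.0017), and Il1r1 differed by 0.053 and Il18r1 by -0.082 without passing.

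Proteins that deliver ligands to the receptors, fold them or carry them split, with 2 genes higher and 6 lower of 9 tested and a median of -0.24. These are 22.2% and 66.7%, against 23.8% and 22.0% over all genes tested. Lbp, which passes lipopolysaccharide to Cd14, rose by 1.60 (SE 0.095, limma adjusted p = 4.2e-08), and by 0.83 when its probe sets were averaged. The scavenger receptor Cd36 fell by 1.68 (SE 0.096) and the receptor chaperone Hsp90b1 by 0.51 (SE 0.061), with limma adjusted p = 2.9e-08 and 2.1e-05. Ly86 (MD-1), a relative of Ly96, differed by -0.18 (limma adjusted p = 0.0395), a call that was lost without control pool 1-2 or 3-4 and without threat animal 1, 3, 4 or 5. Over the 9 fits that left out an array its adjusted p ran from 0.0044 to 0.20, and the call was also lost with no filter (0.0536), median centring (0.0536), number-pair averages (0.0928) and the animal numbers as a block (0.0568).

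Genes downstream of the IRAK kinases also went both ways, with 5 of 18 higher, 3 lower and a median of 0.041. These are 27.8% and 16.7%, near the 23.8% and 22.0% over all genes tested. Ikbke, a kinase of interferon regulatory factors, rose by 1.93 (SE 0.098), and Map3k8 (TPL2), a kinase upstream of ERK, by 0.77 (SE 0.047), with limma adjusted p = 1.1e-08 and 5.0e-08. Traf6, the ubiquitin ligase that IRAK kinases engage directly, fell by 0.36 (SE 0.060, limma adjusted p = 3.0e-04; difference -0.24 with its probe sets averaged), and Tbk1 differed by 0.045 (limma adjusted p = 0.657). Of 12 tested inhibitors of the pathway besides Irak3, 2 rose and 3 fell, with a median of -0.002. Their shares of 16.7% and 25% were likewise near those over all genes. Tnip1, a partner of the ubiquitin-editing enzyme A20, rose by 0.66 (SE 0.048, limma adjusted p = 2.4e-07). The phosphatase genes Dusp1 and Inpp5d (SHIP) fell by 0.85 (SE 0.051) and 0.56 (SE 0.053), with limma adjusted p = 4.0e-08 and 2.6e-06. Nfkbia, the NF-kappaB inhibitor, differed by -0.022 (limma adjusted p = 0.724).

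**Figure D3:**
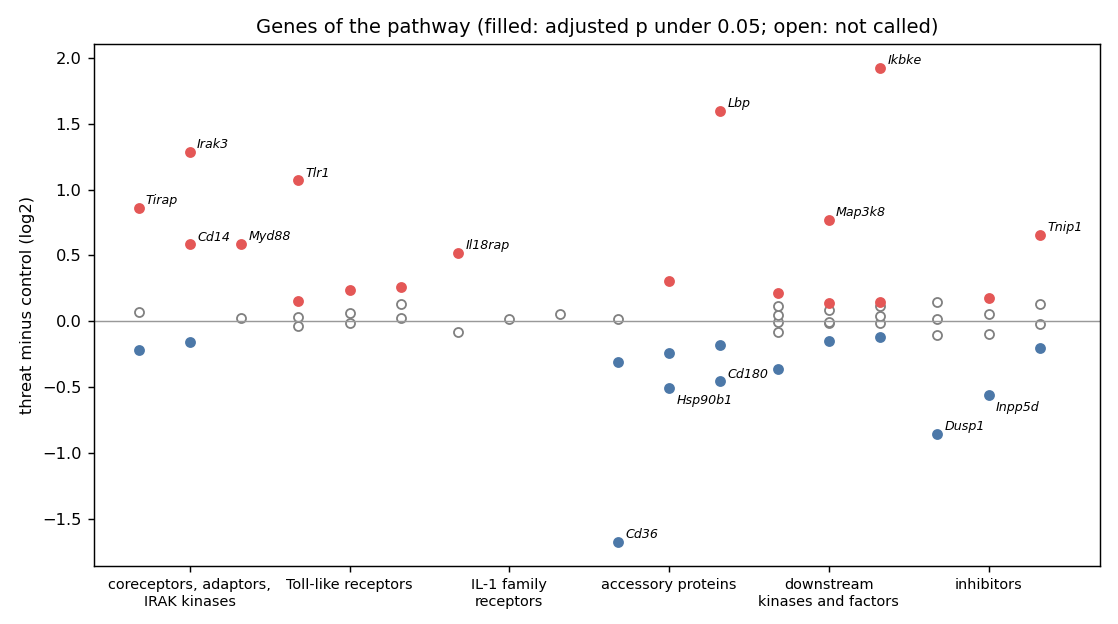
Threat minus control difference on the log2 scale for the tested genes of each pathway list, each point a gene; filled points passed an adjusted p of 0.05 in limma (red higher, blue lower) and open points did not. Irak3 at 1.29 lies among the larger rises, below Ikbke at 1.93 and Lbp at 1.60, and the largest fall is that of Cd36 at -1.68.

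The 5 genes whose profile over the 9 arrays lay nearest to that of Irak3, after each gene was centred on its control mean, were Ebi3, Sqor, Slfn1, Acsl5 and Klf7. Their root-mean-square distances from Irak3 ran from 0.039 for Ebi3, a cytokine subunit, to 0.070 for the transcription factor gene Klf7, against a median of 1.03 over all genes tested. Because of the centring, this distance depends mostly on the size of the group difference. Genes with a difference near that of Irak3 are near by construction, and shared regulation was not tested. Ebi3 differed by 1.27 and Klf7 by 1.24, and with probe sets averaged Sqor differed by 0.73 and Slfn1 by 0.79.

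Marker genes of several cell types differed between the groups. Shares in brackets stand against 23.8% called higher and 22.0% called lower over all genes tested. The 8 genes of myeloid identity were above the filter in both groups, and 7 of them (87.5%) rose. The call of Lyz2 among these (adjusted p = 0.0480) was lost in each of the 9 fits that left out an array (adjusted p 0.052 to 0.16) and in 5 other settings. Itgam, which encodes CD11b itself, rose by 0.57 (SE 0.051, limma adjusted p = 1.7e-06), close in size to Cd14 and Myd88. Of 14 granulocyte and precursor genes, 13 (92.9%) rose, among them Mmp8 by 2.76 (SE 0.060) and the brightest, S100a9, by 0.47. The summed level of the 14 genes on the linear scale was 27296 to 29468 in control pools and 41012 to 48262 in threat animals. Of 9 monocyte genes 5 (55.6%) rose, among them Fcgr4 by 1.47 and the brightest, Csf1r, by 0.19. Another 2 fell, Cx3cr1 (-0.68) and Ace (-0.39), a share of 22.2% that is near that of all genes. The monocyte sums were 6163 to 6756 in control pools and 7579 to 8261 in threat animals. Of 12 macrophage genes 1 (8.33%) rose, Adgre1 by 0.69, and 6 (50%) fell. Among the falls were Timd4 (-1.19), whose threat mean of 2.79 was near the filter value, and the brightest gene, Hmox1 (-0.20). The call of Hmox1 was lost in 4 of the 9 fits that left out an array. The macrophage sums were 4753 to 5070 in control pools and 4147 to 4821 in threat animals. Linear sums weigh bright genes most, and Csf1r (mean 11.88) and Hmox1 (mean 11.40) made up much of the monocyte and macrophage sums. All of these marker genes were above the filter value of 2.66 on the mean over arrays.

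Most lymphocyte and dendritic cell markers were lower in threat animals, where 22.0% of all genes tested were called lower. Of 7 B cell genes 6 (85.7%) fell, among them Cd79a (-2.31), with sums of 1255 to 1470 in control pools and 239 to 336 in threat animals. Of 5 natural killer cell genes 4 (80%) fell, among them Klrd1 (-1.52), with sums of 498 to 583 and 124 to 133. Of 8 dendritic cell genes 7 (87.5%) fell, among them Ccr7 (-1.89) and the brightest, Itgax (-1.01), with sums of 1452 to 1543 and 536 to 592. Of 6 T cell genes 4 (66.7%) fell, among them Cd5 (-0.96) and the brightest, Cd4 (-0.41, and -0.235 with its probe sets averaged). Cd5 had a threat mean of 3.19, near the array medians. The T cell sums over 8 genes were 165 to 175 in control pools and 118 to 126 in threat animals. The T cell markers Cd3g and Cd28 lay under the filter value on the mean over arrays. The part of these shifts in the differences of Cd14, Tirap, Myd88 and the IRAK kinases was not tested. Among threat animals the mean log2 level of the granulocyte list was highest in animal 1 (10.40) and lowest in animals 5 and 6 (9.96 and 9.99). Irak3 was highest in animals 3 and 4 and lowest in animals 5 and 6, Tirap and Myd88 were highest in animal 4 and lowest in animal 6, and Cd14 was highest in animal 4 and lowest in animals 1 and 2.

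The 8 genes were also measured against the 8 myeloid identity genes of the same array, whose mean rose by 0.36, in a measure chosen after the data were seen. That reference does not follow the granulocyte list, whose median difference was 1.38. On this scale Irak3 was higher in threat animals by 0.93 (SE 0.050), Tirap by 0.50 (SE 0.051), Myd88 by 0.23 (SE 0.045) and Cd14 by 0.22 (SE 0.048), with limma adjusted p = 9.0e-09, 2.4e-06, 5.1e-04 and 9.3e-04. The other 4 genes were called lower relative to the myeloid genes, with differences of -0.29 for Ly96, -0.34 for Ticam1, -0.52 for Irak1 and -0.58 for Irak2, of which Ly96 and Ticam1 had the sign turned. The scale lowers every gene alike: the median of all genes was -0.33, with 6.42% of genes called higher and 80.1% lower. A ratio of this kind shows unequal change within an array and does not show which gene changed.

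**Figure D4:**
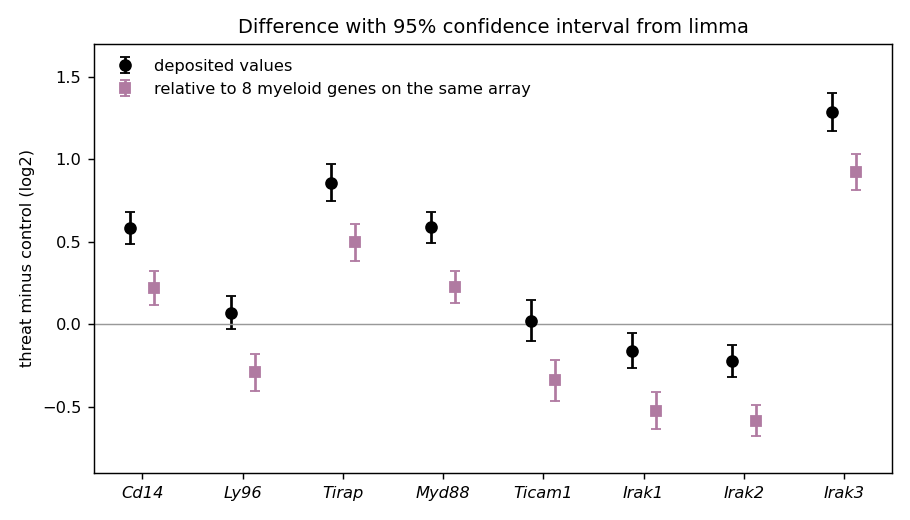
Threat minus control difference on the log2 scale of the 8 genes, with the 95% confidence interval from limma, for the deposited values (black circles) and relative to the mean of 8 myeloid identity genes on the same array (purple squares). Irak3, Tirap, Myd88 and Cd14 lie above 0 on both scales, Irak1 and Irak2 below 0 on both, and Ly96 and Ticam1 move from near 0 to -0.29 and -0.34.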

How the data were processed

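The authors deposited log2 values, 1 for each array and probe set, which RMA produced per the submitters' processing notes (RMA version not given in the sources used here). Base 2 was inferred from the range of the values, 0.607 to 13.567. After 64 control probe sets were set aside, 34945 of 45037 named 1 gene, 932 several and 9160 none here; symbols were updated through the Entrez number to RefSeq (GRCm38.p6, names and promoter windows only), which matched 34741.

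The probe set with the highest mean over 9 arrays stood for a gene, and genes with a mean of at least the 40th percentile of probe sets (2.66) were tested across all genes in R 4.3.3 with limma 3.58.1 (lmFit, eBayes, arrays weighted equally, two-sided) and Benjamini-Hochberg adjustment at 0.05. SEs are limma's moderated ones. Only the limma fit was tested on simulated data, with independent noise for each gene and a small set of genes changed by known amounts. Those data did not copy the large share of genes called here, and the choice of probe sets and the filter were not tested. RMA gives no detection call and normalizes between arrays, so a change in total RNA per cell is not seen. The number of arrays limits the precision.

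The members and lists were chosen with earlier results of these data known, so lists are described by counts and medians only. Named genes are the members, and of each pathway list the 3 smallest p-values and the highest mean. They also include, of each marker list, the smallest p-value and the highest mean, and the 5 nearest profiles. Cx3cr1, Ace, Adgre1 and Tlr12 are printed in addition to these.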

Additional observations from a re-analysis of the deposited data

Results flagged for a closer look

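Of 45 named genes, 2 had a threat animal far from the other 5, in the sense that its gap to the nearest animal took up more than 0.625 of the range of the group. Chance gives that in about 1 of 20 groups, so about this many flagged genes would be expected among 45. Ticam1 read 5.55 in threat animal 4 and 5.73 to 5.77 in the other threat animals, and without that animal its difference was 0.057 (limma adjusted p = 0.352). Tlr2 read 10.46 in threat animal 1 and 10.56 to 10.60 in the others.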

How the results depend on the processing

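Under 10 other ways of processing and 9 fits that left out an array, Cd14, Tirap, Myd88 and Irak3 kept their rise and Irak2 its fall; the largest adjusted p of these 5 genes was 0.0075. Ly96 and Ticam1 passed under none of them. Irak1 lost its call without control pool 5-6 only, so that leaving out arrays gave 1 to 2 falling genes and 4 rising genes; the median of the 8 genes ran from 0.32 to 0.34. Over all genes, 2609 to 3372 were higher and 2517 to 2983 lower. With each array centred on the myeloid genes, which was chosen with the data in view, 840 genes were higher and 10471 lower, 4 of the 8 genes were lower, their median was -0.035, and Ly96 (-0.29) and Ticam1 (-0.34) turned sign, which follows from subtracting the rise of those genes. Uncalled genes turned sign around 0: Tbk1 to -0.0096 with the mean of probe sets, -0.064 with probe sets without a suffix and -0.017 without control pool 1-2 (-0.017 to 0.14 over the fits that left out an array), Nfkbia to 0.015 with quantile normalization, and Il18r1 to 0.0032 without control pool 5-6 and 0.0021 without threat animal 6 (-0.19 to 0.0032 over those fits); the cause was not tested. Animal numbers as a replicate block, which the labels do not tie to a shared day or litter, gave 3085 genes higher and 2860 lower and the same calls for the 8 genes. Deviations of control pools 1-2, 3-4 and 5-6 correlated with those of the same-numbered animals at 0.15, -0.15 and -0.029 across genes, and only pool 1-2 correlated best with its own numbers.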
